A study of Homo sapiens with 6 samples.

Results

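The regions described here are stretches of chromatin at gene promoters that carried acetylated lysine in control HepG2 cells and that no longer held a peak of acetylated or benzoylated lysine after sodium benzoate (SB). They were chosen by their place in the deposited peak lists: a control acetylation (Kac) peak was taken when it shared 0 bp with any Kac peak and any benzoylation (Kbz) peak of SB-treated cells, and at least 1 bp with the window of 1 kb either side of the canonical transcription start site (TSS) of a protein-coding gene. In total, 565 peaks met this rule, out of 12381 control Kac peaks at promoters and 70326 control Kac peaks in all. HepG2 is a line grown from a human liver tumour. The chromatin came from cells cultured in DMEM with 10% serum, either left untreated (control) or given SB at 10 mM for 24 h, and was cut with micrococcal nuclease before immunoprecipitation with pan anti-Kac or pan anti-Kbz antibodies. There was 1 library per group, so no difference between control and SB could be set against replicate error, and no test between the conditions was possible. The control Kbz library gave no peaks according to its label, and the input libraries were not analysed here.

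Lysine acetylation neutralises the charge of histone tails and is a general feature of active promoters and enhancers. It is laid down by acetyltransferases, removed by histone deacetylases and sirtuins, and read by bromodomain proteins. Benzoylation is a bulkier acyl mark on the same kind of residue, formed from benzoyl CoA when cells take up benzoate. A pan antibody recognises the modified lysine on any histone, so the lists do not tell which histone or which residue carried the mark.

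The sequences below are examples of starts at these regions, picked by high fold, and do not stand for the regions as a whole. They are the 200 bases upstream of the TSS in hg38, read 5′ to 3′ on the strand of the gene, for 6 of the 10 peaks with the highest fold that covered the TSS of a gene with no SB peak within 3 kb, and none of these windows held an annotated exon. The capitals mark matches to the promoter motifs searched, on either strand. The TATA box was searched as TATAAA. The AP-1 site was searched as TGANTCA. The letters CACGTG stand for an E-box. The cyclic AMP response element was taken as TGACGTCA. A GC box was taken as GGGCGG and reads CCGCCC where it lies on the other strand. The CCAAT box reads ATTGG on the other strand.
EPX: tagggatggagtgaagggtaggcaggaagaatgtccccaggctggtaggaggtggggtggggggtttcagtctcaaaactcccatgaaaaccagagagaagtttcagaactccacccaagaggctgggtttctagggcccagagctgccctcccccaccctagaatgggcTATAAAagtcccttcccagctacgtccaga
MMP10: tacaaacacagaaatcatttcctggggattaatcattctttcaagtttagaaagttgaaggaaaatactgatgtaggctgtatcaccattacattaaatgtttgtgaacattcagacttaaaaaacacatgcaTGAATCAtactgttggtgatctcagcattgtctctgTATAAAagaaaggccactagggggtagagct
C4orf51: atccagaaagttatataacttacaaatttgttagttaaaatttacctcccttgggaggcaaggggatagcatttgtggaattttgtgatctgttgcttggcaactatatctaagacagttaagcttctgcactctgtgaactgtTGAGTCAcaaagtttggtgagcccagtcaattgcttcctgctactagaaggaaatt
CCDC169-SOHLH2: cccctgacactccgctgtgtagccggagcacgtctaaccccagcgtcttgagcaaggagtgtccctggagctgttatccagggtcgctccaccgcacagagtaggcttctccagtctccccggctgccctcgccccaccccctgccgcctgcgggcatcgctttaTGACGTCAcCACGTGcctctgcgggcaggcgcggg
ARL11: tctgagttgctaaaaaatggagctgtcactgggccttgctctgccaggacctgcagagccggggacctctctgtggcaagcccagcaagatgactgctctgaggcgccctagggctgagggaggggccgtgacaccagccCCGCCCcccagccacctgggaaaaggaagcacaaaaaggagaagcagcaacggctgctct
PAK3: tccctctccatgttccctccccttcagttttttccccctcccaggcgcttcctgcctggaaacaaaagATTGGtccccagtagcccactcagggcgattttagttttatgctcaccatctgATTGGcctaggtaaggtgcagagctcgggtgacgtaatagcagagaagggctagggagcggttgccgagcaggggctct

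EPX (chr17:58192526-58192725, plus strand) encodes the peroxidase of eosinophil granules. MMP10 (chr11:102780629-102780828, minus strand) encodes the secreted protease stromelysin-2. C4orf51 is at chr4:145679946-145680145 on the plus strand. CCDC169-SOHLH2 (chr13:36297843-36298042, minus strand) is a read-through gene that includes SOHLH2, a germ cell transcription factor. ARL11 (chr13:49628307-49628506, plus strand) encodes a small GTPase. PAK3 (chrX:111095991-111096190, plus strand) encodes a p21-activated kinase known from neurons. The TATAAA match began 30 bases before the TSS in EPX and 31 bases before it in MMP10. The TGANTCA match of C4orf51 began 56 bases before the TSS and that of MMP10 67 bases before it. The windows of MMP10 and C4orf51 contained 0 CpG dinucleotides, that of EPX 1, ARL11 5, PAK3 6 and CCDC169-SOHLH2 16. A match is a run of letters and says nothing on whether a factor bound there.

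The absent peaks were a small part of promoter acetylation. They made up 4.56% (4.21 to 4.95) of the control Kac peaks at promoters, where the range is the Wilson 95% interval, which covers counting error only. Over all control Kac peaks the same rule left 34.8% without an SB peak, and away from promoters 23936 of 57945, or 41.3%. Of the other promoter peaks, 10209 overlapped both SB Kac and SB Kbz, 1593 overlapped SB Kac only and 14 overlapped Kbz only. The Kbz condition thus took only those 14 out of the peaks without SB Kac. The reverse class, SB Kac peaks at promoters with no control Kac and no Kbz, held 444 of 12198 peaks, or 3.64% (3.32 to 3.99). The control list had 70326 peaks and the SB Kac list 63282, and the read depth behind them is unknown. How far the unequal lengths of the lists enter the number of absent peaks was not tested. In pooled cells, fewer cells with the mark and less of it per cell cannot be told apart.

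The label of the cells was checked against marker genes. Of 10 liver genes, 2 had a control Kac peak within 1 kb of the TSS, and 1 had an SB Kac peak there. ALB, APOB, AFP, TTR, SERPINA1, FGB, HNF4A and FOXA2 had none in either list, which goes against what a hepatocyte line would be thought to carry at these starts. Of the markers of other cell types, 2 of 5 of blood, 2 of 4 of fibroblasts (COL1A1 and COL1A2), 2 of 3 of endothelium (VWF and CDH5) and 2 of 4 of neurons (MAP2 and SYP) had control Kac there. COL1A2, a chain of type I collagen, and VWF, the von Willebrand factor, were among the genes with an absent peak. In larger lists, control Kac was present at 20 of 54 liver plasma protein genes and 12 of 20 liver transcription factors. The same held for 12 of 45 blood lineage genes, 30 of 73 genes of synapse and neuronal cytoskeleton and 69.1% of all protein-coding genes. The cells are called HepG2 below as in the labels, and the part of their identity in the results was not tested.

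The 3 highest folds belonged to MEF2B, NUDT14 and SLC6A12. The fold is the authors' ratio of the read density in a peak to its background, and it ranks peaks within the control list. The peak near MEF2B, a MADS-box transcription factor of B cells, had a fold of 5.30, at percentile 95.5 of the control list, with a −log10 q of 10.8. It lay at chr19:19170633-19172901, 370 bp upstream of the TSS, and the nearest SB Kac peak was 18696 bp away. The peak near NUDT14, an enzyme that hydrolyses UDP-glucose, had a fold of 4.70 and lay 481 bp downstream of the TSS. SLC6A12 encodes a betaine and GABA transporter, and its peak (chr12:213895-214786, fold 4.57) covered the TSS. The next were SPINK4 (4.53), a protease inhibitor of the gut, CCIN (4.48), a cytoskeletal protein of the sperm head, EPX (4.35), the homeobox gene DBX2 (4.33), ENTREP1 (4.23), the protocadherin PCDHB5 (4.23) and MMP10 (4.21). Of these 10 genes, SLC6A12, CCIN, EPX and MMP10 had the peak over the TSS itself. The 10 were genes whose known roles lie in diverse tissues. No liver marker of the list above had an absent peak at all, so none could stand among these 10.

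The longest absent peak ran over 8813 bp downstream of TMEM247, from 200 bp past its TSS. COL7A1, which encodes the collagen of the anchoring fibrils of skin, had a peak of 6696 bp (chr3:48592427-48599122) that reached from 3793 bp upstream to 2902 bp downstream of the TSS. MYL3, a myosin light chain of heart and slow muscle, had one of 6138 bp (chr3:46860867-46867004). CAMK2A, a calcium-dependent kinase of neurons, had one of 5076 bp with a fold of 3.95. CGA, the common alpha subunit of the pituitary and placental glycoprotein hormones, had one of 3589 bp. Other long peaks lay at ENSG00000268797 (4647 bp), C10orf105 (4591 bp), ARID3C (3872 bp) and GPC1 (3711 bp). The folds of these long peaks ran from 2.62 at C10orf105, at percentile 15.2 of the control list, to 3.95 at CAMK2A, at percentile 78.0. At COL7A1 the next control peak downstream, which began 8223 bp from the TSS, overlapped an SB Kac peak, and so did the next one upstream, which also overlapped Kbz. At EPX the control list had 5 peaks within 15 kb of the TSS. The 2 outermost of them overlapped SB Kac, and the absent peak in the middle and its neighbours on either side did not. MMP10 and PCDHGA7 had no SB peak of either mark within 15 kb.

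**Figure D1:**
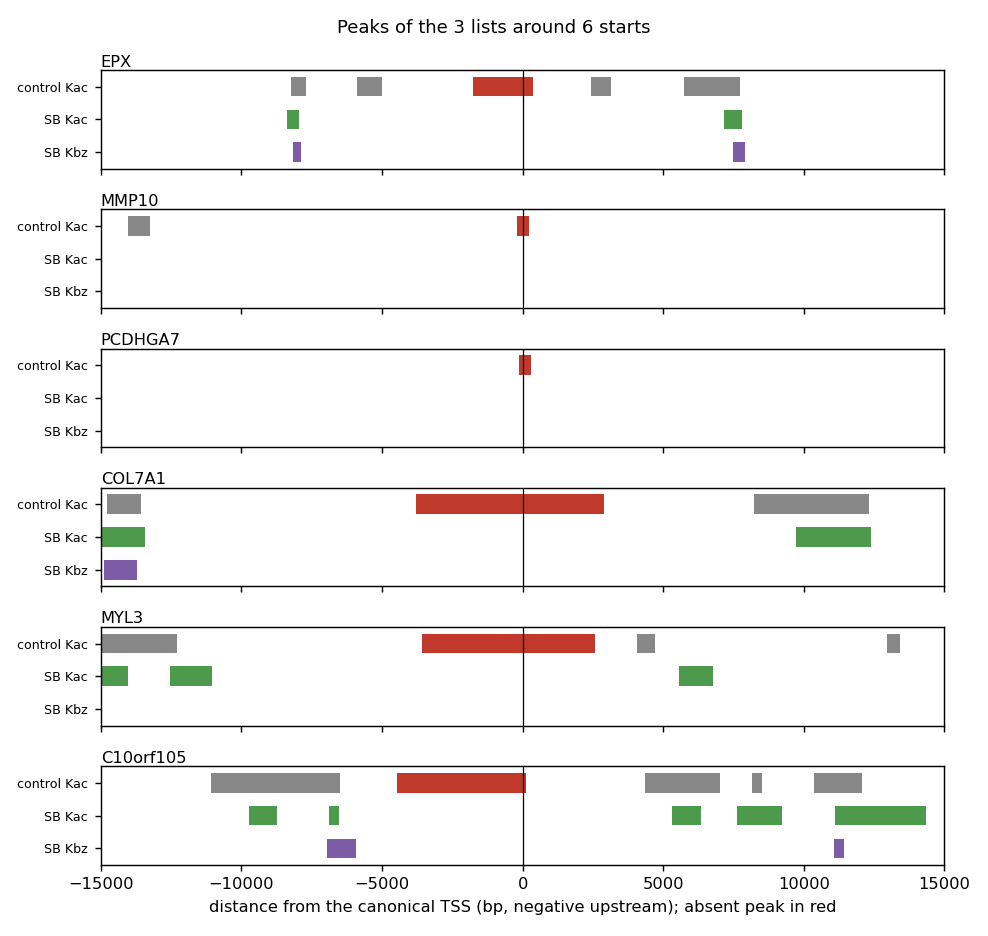
Peaks around the TSS of 6 genes, drawn to scale within 15 kb on the strand of each gene. The horizontal axis is the distance from the canonical TSS in bp, the 3 rows of each panel are the control Kac, SB Kac and SB Kbz lists, and the absent peak is red. The genes are the 3 with the highest fold among peaks covering the TSS with no SB peak within 3 kb, and those with the 3 longest absent peaks over a TSS. EPX, COL7A1, MYL3 and C10orf105 had SB Kac on both sides of the absent peak, and MMP10 and PCDHGA7 had none in view.

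Most absent peaks were short and weak within the control list. Their median length was 761 bp, with a range of 280 to 8813 bp. Promoter peaks kept with SB Kac alone had a median of 1464 bp, and those kept with Kbz 2792 bp. The median fold was 2.87, at percentile 35.4 of all control peaks, against 3.21 and percentile 54.7 for peaks kept without Kbz and 4.30 and percentile 84.6 for peaks kept with Kbz. The rule did not use the fold, but a weak peak is nearer to the detection limit of either library, so these values are given as a description. Of the absent peaks, 160 of 565, or 28.3% (24.8 to 32.2), had a q above 0.01, the false discovery rate stated by the study, against 187 of 11802 kept peaks, or 1.58%. A −log10 q of at least 5 was reached by 23 absent peaks, among them MEF2B, NUDT14, SLC6A12, EPX, IL31RA and CAMK2A, and by 67.1% of the kept peaks. Absent peaks away from promoters resembled those at promoters, with a median length of 721 bp and a median fold of 2.77. The 444 new SB promoter peaks had a median length of 755.5 bp, and their median fold lay at percentile 34.5 of the SB list.

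**Figure D2:**
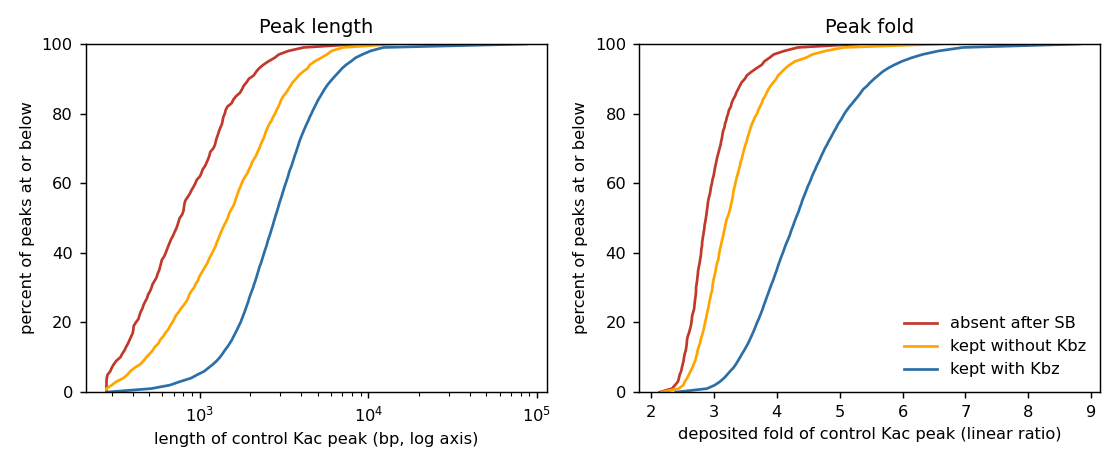
Cumulative percent of control promoter Kac peaks by length (bp, log axis) and by deposited fold (linear ratio), for 565 absent peaks, 1593 kept without Kbz and 10209 kept with Kbz. Absent peaks lie furthest to the left in both panels. The curves stand apart at percentile 50, with lengths of 761, 1464 and 2792 bp and folds of 2.87, 3.21 and 4.30. The ranges of values overlap between the sets.

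The share of promoter peaks that were absent fell with the fold. The 12381 peaks were split into 10 deciles of fold. In the lowest decile, with folds up to 3.06, 384 of 1239 peaks were absent, or 31.0% (28.5 to 33.6). In the second decile the share was 8.80%, in the third 2.50%, and in the fifth 0.889%. MEF2B was the only absent peak in the ninth decile, NUDT14 the only one in the eighth, and the highest decile had 0 of 1238. Deciles of length gave a like order, from 26.6% in the shortest to 0.242% in the longest.

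Most absent peaks lay at starts that were poor in CpG. A TSS was called CpG-rich when the 500 bp around it had at least 55% G and C and an observed over expected CpG ratio of at least 0.65. Of the absent peaks, 188 of 565, or 33.3% (29.5 to 37.3), had a CpG-rich nearest TSS, against 59.6% (57.1 to 62.0) of peaks kept without Kbz and 84.9% of peaks kept with Kbz. Over all 19970 protein-coding genes the share was 62.7%. The median observed over expected CpG ratio was 0.37 at absent peaks and 0.84 at kept peaks. Seen the other way, 14.7% (13.4 to 16.1) of the promoter peaks at starts that were not CpG-rich were absent, and 1.92% (1.66 to 2.21) of those at CpG-rich starts. The difference was also present within deciles of fold, but these did not hold strength constant. The lowest decile ran from 2.14 to 3.06 and held 384 of the 565 absent peaks. The median fold of absent peaks was 2.81 at starts that were not CpG-rich and 2.99 at CpG-rich ones. In the lowest decile of fold the shares absent were 43.0% (39.2 to 46.9) and 18.1% (15.2 to 21.4), and in the second 19.3% and 5.13%. The share was higher at starts that were not CpG-rich in 8 of 10 deciles of fold and in 10 of 10 deciles of length. In the seventh and ninth deciles of fold this rested on 3 absent peaks and 1. Among the 444 new SB peaks 47.1% (42.5 to 51.7) lay at CpG-rich starts, so these too were below the 62.7% of all genes. EPX, MMP10, SLC6A12, IL31RA and MYL3 are examples of absent peaks at CpG-poor starts, with observed over expected ratios of 0.14, 0.15, 0.26, 0.11 and 0.12. NUDT14, DBX2, COL6A5 and COL7A1 had CpG-rich starts, with 1.00, 0.93, 0.81 and 0.66.

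**Figure D3:**
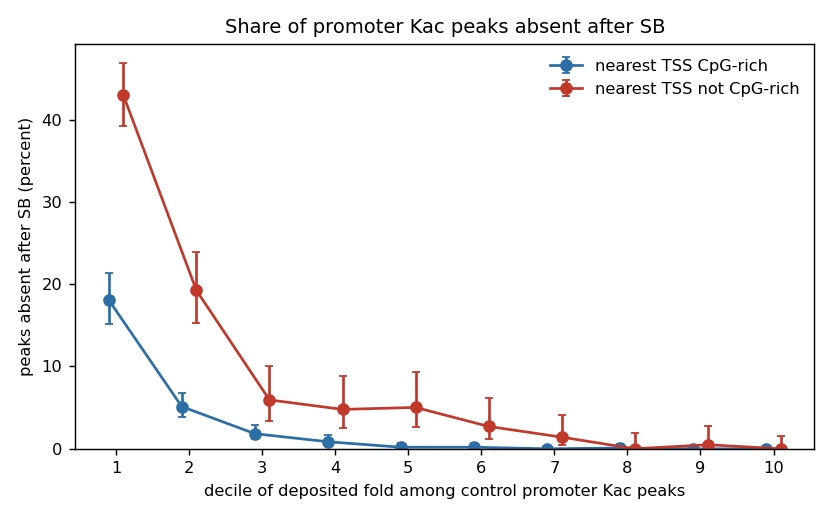
Percent of control promoter Kac peaks absent after SB in each decile of deposited fold, for peaks whose nearest TSS was CpG-rich (blue) or not (red). Bars are Wilson 95% intervals. In the 2 lowest deciles the red points stand at 43.0% and 19.3% and the blue points at 18.1% and 5.13%, and both fall toward 0.

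Many absent peaks lay beside the TSS and not over it. The TSS was covered by 233 of 565, or 41.2% (37.3 to 45.3), against 56.5% (54.0 to 58.9) of peaks kept without Kbz and 90.3% of peaks kept with Kbz. Longer peaks have more room to reach a TSS, and length differs between these sets. Within deciles of length, the share absent was higher off the TSS than over it in 9 of 10. The exception was the shortest decile, up to 906 bp, which held 330 of the 565 absent peaks. There 27.9% (23.8 to 32.4) of peaks over the TSS were absent and 26.0% (23.1 to 29.1) of those off it. The 332 peaks that missed the TSS came within a median of 429 bp of it, and 169 of them, or 50.9%, had their centre upstream. Of the 332, 44 covered another annotated start of a coding gene, 6 the start of a long noncoding RNA and 282 neither. Position was also combined with CpG content. Of peaks that covered a CpG-rich TSS 48 of 8326 were absent, or 0.577%, and of peaks off a TSS that was not CpG-rich 192 of 533, or 36.0% (32.1 to 40.2). The classes between these, over a CpG-poor TSS and beside a CpG-rich one, had 9.09% and 9.41%. Of the 188 absent peaks at CpG-rich starts, 48 covered the TSS and 140 lay beside it. COL7A1 and COL6A5 are examples with the TSS covered. At NUDT14 the peak lay 481 bp downstream of it.

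**Figure D4:**
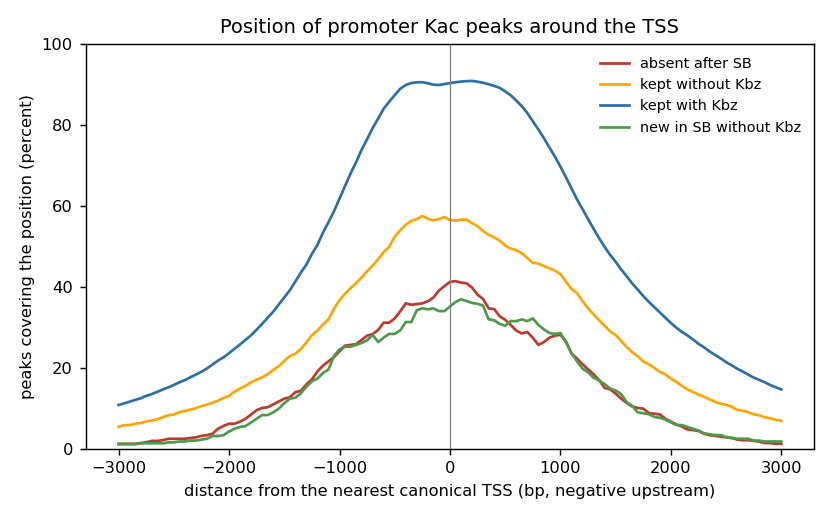
Percent of peaks that cover each position within 3 kb of the nearest canonical TSS, in steps of 50 bp (negative is upstream), for absent peaks, kept peaks without and with Kbz, and new SB peaks without Kbz. Absent peaks reach 41.4% at 50 bp downstream, new SB peaks 36.9%, kept peaks without Kbz 57.5% and kept peaks with Kbz 90.9%. All peaks were chosen to touch the window of 1 kb either side.

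At the level of genes, 571 protein-coding genes had an absent peak in the promoter window, 2.86% of 19970 genes and 4.14% of the 13795 genes with control Kac there. Of the 571, 523 or 91.6% (89.0 to 93.6) had no SB Kac and no Kbz left anywhere in the window, and 409 or 71.6% (67.8 to 75.2) had none within 3 kb. These genes were chosen for a peak in the window that shared 0 bp with SB peaks. The 91.6% therefore follows in part from the rule and is given as a description. The first share moved with the definition of the promoter and of absence. It was 46.1% with a window of 3 kb in the rule, 26.9% with any annotated coding TSS and 42.0% when a peak counted as absent with less than 50% of it under SB peaks. By the rule as given, the other 48 had SB Kac elsewhere in the window, and 7 of them Kbz. Among these 48 were SLC15A3, IL24 and the diacylglycerol kinase DGKQ. Counted without the rule on single peaks, 634 of 13795 genes with control Kac, or 4.6%, had no SB Kac and no Kbz in the window. Of the 523 emptied genes 30.0% (26.2 to 34.1) had a CpG-rich TSS, close to the 27.0% (25.9 to 28.2) of genes that carried no control Kac at all and below the 80.7% (80.0 to 81.3) of acetylated genes with no absent peak. Of the 48 genes that were not emptied 60.4% (46.3 to 73.0) had one. In 9 genes 2 absent peaks fell in 1 window: DTX3, FOXI3, GRIN3B, LDLRAD1, SHISA4, SLC16A3, SYT7, TLE5 and TRIM31. There were 21 genes with both an absent peak and a new SB peak.

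The gene families differed in how many of their acetylated promoters had an absent peak. In total, 53 lists of genes were examined, and 37 of them had at least 1. The counts are to be read against the 4.14% of all acetylated genes, and their intervals are not adjusted for the number of lists. The lists also differed in CpG content. CpG-rich starts numbered 1 of 400 in olfactory receptors, 0 of 94 in keratin-associated proteins and 55 of 95 in potassium channels. In cytosolic ribosomal proteins there were 72 of 83. How far CpG content and peak strength enter the shares of the lists was not tested. Genes of a family can share near-identical sequence, to which few reads map uniquely, so peaks at clustered families are uncertain.

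The lists of cell adhesion and cell surface genes varied. Clustered protocadherins, adhesion molecules that give neurons their identity, had control Kac at 9 of 53 genes, and 4 of these 9 had an absent peak: PCDHB5 (fold 4.23), PCDHGA7 (4.15), PCDHB15 (3.76) and PCDHB16 (3.36). All 4 peaks were below 500 bp long, and the nearest SB Kac peak was between 21794 and 50102 bp away. Claudins, the proteins of tight junctions, had 4 of 10: CLDN16 (3.21), CLDN9 (3.04), CLDN14 (2.89) and CLDN25 (2.80). Of the cadherins 4 of 16 had one, CDH22, CDH15, CDHR5 and CDH17. CDH15, the cadherin of muscle, kept SB Kac in its window. Of the integrins 2 of 23 had one, ITGA2B of platelets and ITGB7 of lymphocytes, a share of 8.70% (2.42 to 26.8). In other cell surface lists there were 2 of 36 GPR receptors, 1 of 19 WNT and frizzled genes, 0 of 25 semaphorins and plexins and 0 of 14 FGF genes and receptors. The intervals of these 5 lists, integrins included, held 4.14%.

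Among collagens 7 of 32 acetylated genes had an absent peak, or 21.9% (11.0 to 38.8). All 7 were emptied, near the 91.6% of all genes with an absent peak. COL6A5 had a fold of 3.88, COL7A1 3.59 and COL1A2 3.29. COL4A3 and COL4A4, which encode chains of basement membrane collagen and are read outward from a shared start region, lay under the same peak of 1235 bp (chr2:227163643-227164877, fold 2.96), whose nearest SB Kac peak was 159649 bp away. That peak counts once among the 565 and for both genes.

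Ion channels and synaptic genes formed another group. Of 49 acetylated potassium channel genes 11 had an absent peak, or 22.4% (13.0 to 35.9). All 11 were emptied, as were 91.6% of all genes with an absent peak. They included KCNH8 (3.82), KCNA3 (3.59), which encodes the Kv1.3 channel of lymphocytes, and KCNMA1 (3.40), the large-conductance calcium-activated channel. These 3 starts were CpG-rich, unlike most absent peaks. Of 30 acetylated genes of synapse and neuronal cytoskeleton 6 had one, with GRIN2A (3.42), an NMDA receptor subunit, the highest, followed by the synaptotagmins SYT12 (3.20) and SYT7 (3.14). Among solute carriers 17 of 246 had one, or 6.91% (4.36 to 10.8). Beside SLC6A12 these were led by SLC32A1 (3.63), which loads synaptic vesicles with GABA and glycine, SLC35F3 (3.50) and SLC17A7 (3.35), which loads them with glutamate.

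Of the interleukins and their receptors 9 of 38 acetylated genes had an absent peak, or 23.7% (13.0 to 39.2). IL24, a cytokine of the IL-10 family, had a fold of 4.13, but SB Kac was present elsewhere in its window. IL31RA (3.93), a receptor subunit for interleukin-31, IL23A (3.07), a subunit of interleukin-23, and IL21R (2.96), the interleukin-21 receptor, were emptied. Of the TNF family 3 of 18 had one, TNFRSF11B (3.10), the decoy receptor osteoprotegerin, TNFRSF1B (2.87) and TNFRSF25 (2.60). Of the blood lineage genes 2 of 12 had one, the lymphocyte antigens CD6 (3.28) and CD69 (3.16).

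Of 400 olfactory receptor genes only 10 had control Kac, and 6 of these 10 had an absent peak, with folds from 3.52 at OR5AU1 down, while 1 gene of the family had a new SB peak. Of the keratin-associated proteins, which build hair, 3 of 8 had one, and of the keratins 2 of 12, KRT23 and KRT85. Of the liver plasma proteins 2 of 20 acetylated genes had an absent peak, or 10.0% (2.79 to 30.1), an interval that held 4.14%. They were VTN (2.84), which encodes vitronectin, and SERPINA6 (2.78), which encodes the cortisol carrier. A new SB peak was present at 6 of the 54 liver plasma protein genes and at 455 of all 19970 protein-coding genes. Other lists had new peaks as well, with 10 of 368 solute carriers, 4 of 95 potassium channels and 2 of 44 collagens. Clustered protocadherins and the TNF family had 0. Among liver transcription factors ONECUT2 (2.95) was the only one of 12.

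The other lists described had from 0 to 6 genes with an absent peak. Of 22 acetylated glycolysis genes 2 had one, or 9.09% (2.53 to 27.8), PGK2 (3.58), the testis form of phosphoglycerate kinase, and PKLR (2.49), the pyruvate kinase of liver and red cells. The only gene of glycerophospholipid metabolism, a pathway the study followed, was DGKQ (3.07), 1 of 50. The proteasome list had 2 of 40. They were PSMB11 (2.71), a subunit of the thymus proteasome, and PSME1 (3.80), a subunit of the activator induced by interferon. There was no absent peak among 82 acetylated cytosolic ribosomal protein genes, 76 mitochondrial ribosomal protein genes and 78 oxidative phosphorylation genes. For these 3 lists the upper limits of the Wilson intervals were 4.48%, 4.81% and 4.69%, so each interval held the 4.14% of all acetylated genes. Cyclins and their kinases (40), HOX genes (37), immediate early genes (27), genes of cholesterol synthesis (22), histone acetyltransferases (15) and histone deacetylases with sirtuins (17) also had 0, and their intervals held 4.14% as well. Of 378 acetylated zinc finger genes 6 had one, or 1.59% (0.73 to 3.42), led by ZNF442 (4.05), an interval below 4.14%.

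**Figure D5:**
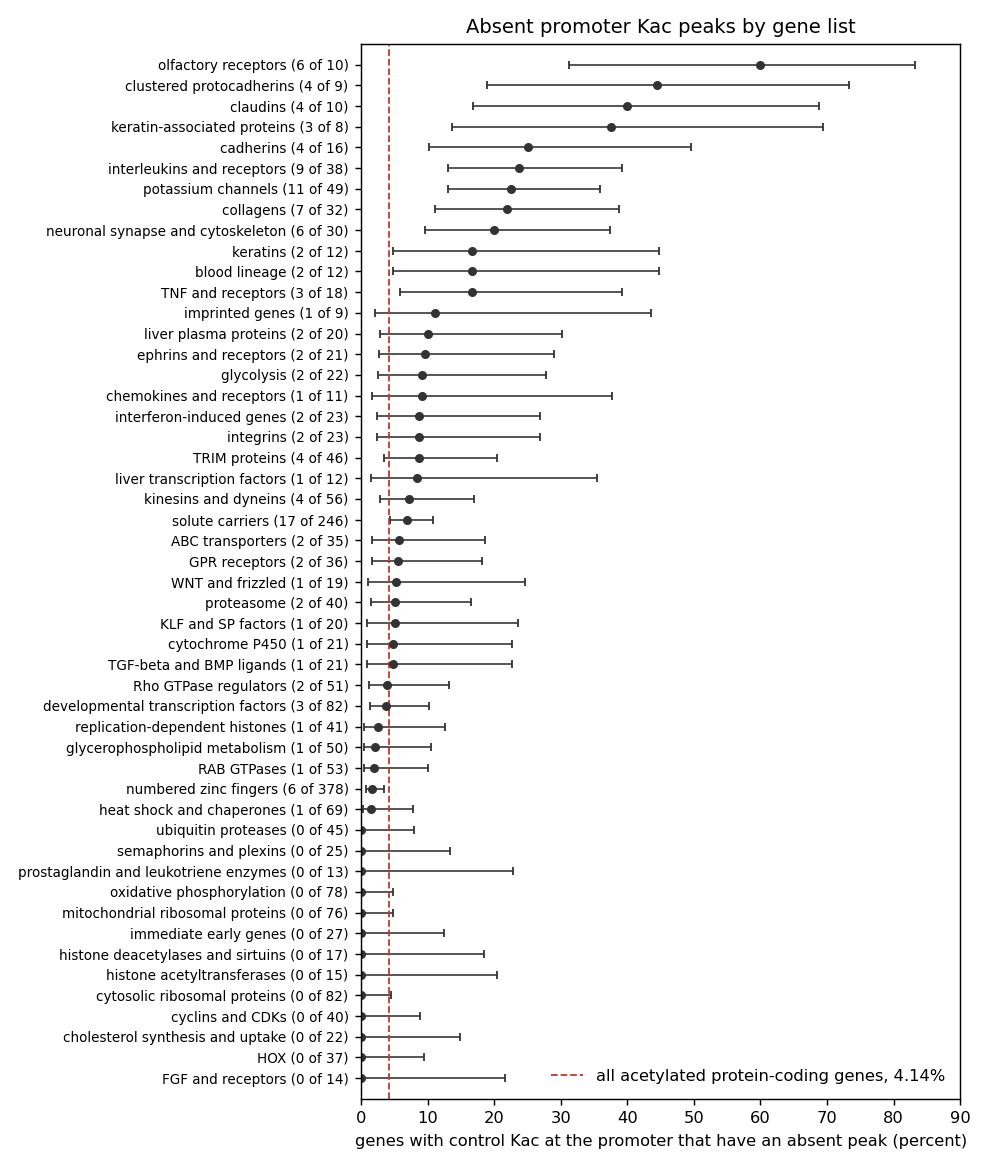
Percent of acetylated genes of each list that had an absent promoter peak, with Wilson 95% intervals, for lists with at least 8 acetylated genes. The dashed line is the 4.14% of all acetylated protein-coding genes, and the counts stand in brackets. The intervals of olfactory receptors, protocadherins, claudins, keratin-associated proteins, cadherins, interleukins, potassium channels, collagens, neuronal genes, keratins, blood lineage genes, the TNF family and solute carriers lie above the line, those of the other lists cross it, except that of the numbered zinc fingers, which lies below.

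The promoters at the absent peaks were searched for 11 motifs in the 200 bases upstream of the TSS, on both strands. This window could reach beyond the peak, as at C4orf51, where 125 of the 200 bases lay in it. Of 233 absent peaks that covered a TSS, 13.7% (9.90 to 18.7) had TATAAA in the window. The share was 4.09% for the 10121 kept peaks that covered one and 7.83% for all genes. Each motif was searched on its own, and matches to different motifs may share letters. TGANTCA occurred in 10.3% (7.02 to 14.9), 2.67% and 3.75%. GGGCGG occurred in 33.0% (27.3 to 39.3), 68.5% and 56.3%, and CCGGAAG, the core of the ETS site, in 7 of 233, 15.1% and 10.8%. CCAAT differed little, with 27.5%, 30.5% and 30.4%. GCGCATGC, the core of the NRF1 site, was in 0 of 233 windows, with an upper limit of 1.62%, and in 4.87% of the kept ones. At starts that were not CpG-rich it was in 0 of 185, with an upper limit of 2.03%, in 1.62% of the kept ones and in 1.14% of all genes, so no difference was detectable there. Base composition moves with each of these shares, so they were also taken at starts that were not CpG-rich. There TATAAA stood at 15.7% (11.1 to 21.6) of 185 absent peaks, 9.68% (8.42 to 11.1) of 1849 kept peaks and 15.9% of all such genes. TGANTCA stood at 11.9% (7.99 to 17.3), 6.49% (5.45 to 7.71) and 7.06%, GGGCGG at 20.5%, 38.0% and 23.2%, and CCGGAAG at 2.70%, 9.30% and 4.32%. At CpG-poor starts the shares of the TATA box, the GC box and the ETS site at absent peaks were thus near those of all CpG-poor genes, and the kept promoters were the set that differed. The other motifs were rarer or differed less. CACGTG was in 6.87%, 8.04% and 6.93% of the 3 sets, and at starts that were not CpG-rich in 7.03% (4.15 to 11.7), 4.92% and 4.39%. TGACGTCA was in 1.29%, 3.03% and 2.30%. AAGATGGC, a form of the YY1 site, was in 0.429%, 1.47% and 1.08%. Of the sites of liver factors, the forkhead site TGTTTAC was in 1.72%, 1.09% and 1.59%. The HNF4 site CAAAGTCCA was in 0.429%, 0.138% and 0.235%.

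The distance from an absent peak to acetylation present after SB varied widely. The nearest SB Kac peak was between 19 and 745274 bp away, with a median of 6291 bp. It was within 1 kb of 39 absent peaks, within 5 kb of 249, or 44.1% (40.0 to 48.2), within 10 kb of 333 and within 50 kb of 498. The nearest Kbz peak was further, with a median of 17509 bp. The nearest other control Kac peak was kept at 348 of 565, or 61.6% (57.5 to 65.5), against 69.6% (67.3 to 71.8) for peaks kept without Kbz and 60.2% for absent peaks away from promoters. By chromosome the share of promoter peaks absent ranged from 2.11% (1.15 to 3.85) on chromosome 4, 10 of 473, to 6.67% (5.20 to 8.53) on chromosome 19, 58 of 869. On most chromosomes the interval held the 4.56% of all promoter peaks. Over all control Kac peaks, promoter or not, the order of these 2 was reversed. There 37.2% were absent on chromosome 4 and 26.1% on chromosome 19, against 34.8% over all chromosomes.

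The edge of the rule shows how narrow some choices were. Just inside it, the absent peak near SLC15A3 ended 19 bp from an SB Kac peak and that near QRFP 38 bp. Just outside it, the control peak near NPTXR shared 8 bp with an SB Kac peak, that near SPRED3 9 bp and that near GUCA2A 31 bp. These 5 peaks had folds between 2.54 and 2.82. TBC1D10A, QRFP and KCNMA1 were the absent peaks that entered the promoter window by the fewest bases, with the TSS 993, 992 and 984 bp away.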

How the data were processed

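The material was the ChIP-seq peak lists of 3 of the 6 libraries, namely Kac from control cells and both Kac and Kbz from SB-treated cells, with 1 library per group. According to the study's methods and the submitters' processing notes, the authors sequenced 50 bp single reads, aligned them to hg38 with Bowtie2 2.2.6, kept unique reads, removed duplicates with SAMtools 0.1.19 and called peaks per library with MACS2 2.1.1 at a stated FDR of 0.01. The broad setting and background track are not given in the sources used here. The lowest deposited −log10 q was 1.31, so the lists extend past that FDR. The score and the −log10 p deposited by the authors entered no result. Fold (deposited as a linear ratio over background, averaged along a broad peak) and −log10 q describe peaks within the control list only. Read depth is unknown.

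Peaks on 23 chromosomes (1 to 22 and X) were kept, and 3 control lines on other sequences were left out. Overlap was at least 1 bp. TSS were those of the canonical transcripts of 19970 protein-coding genes of GENCODE 44, and the sequence was hg38. Named genes were the 10 highest folds, the 10 longest, the 10 highest folds over a TSS with no SB peak within 3 kb, 2 to 4 members by fold of each list described, and the peaks nearest the edge of the rule. Some items that these rules select are not reported here. The members and lists were chosen with earlier results of these data known. Python 3.11.15 with pandas 2.3.3, numpy 2.4.6, scipy 1.17.1 and pysam 0.24.0 was used, overlaps were tested on simulated data and checked against bedtools 2.31.1, and Wilson 95% intervals cover counting error only.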

Additional observations from a re-analysis of the deposited data

How the results depend on the processing

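The 5 results (the number and share of absent peaks, and the shares that covered the TSS, emptied the gene's window and lay at CpG-rich starts) were recomputed under 7 alternatives. No paired analysis was possible because the design has a single library in each condition, and for the same reason no replicate could be left out. Of 35 alternative values 12 stayed within the interval of the main value, or within 1.5 times the count, and 23 moved. With a control −log10 q of at least 2 the share absent was 3.37% and the CpG-rich share 38.5%. At a −log10 q of at least 5, 23 peaks or 0.290% were left, of which 56.5% covered the TSS and 26.1% were at CpG-rich starts, and 95.7% of their genes were emptied. A window of 3 kb gave 1373 peaks or 9.35%, of which 17.0% covered the TSS and 44.9% were CpG-rich, with 46.1% of genes emptied. With any annotated coding TSS there were 2158 peaks or 12.1%, 45.4% covering a TSS, 9.78% CpG-rich and 26.9% of genes emptied. When a peak counted as absent with less than 50% of it under SB peaks, there were 1363 peaks or 11.0%, 58.3% covering the TSS, 47.5% CpG-rich and 42.0% of genes emptied. With no SB peak within 500 bp, 94.0% of genes were emptied, and leaving out the Kbz condition moved none of the 5. Beyond the construction of each alternative the cause was not tested. The share at CpG-rich starts stayed below the 62.7% of canonical coding starts in all 7 alternatives. For any annotated coding TSS this is not a like comparison, because the share over all annotated starts was not taken.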

Other observations

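Genes of striated muscle and of the exocrine pancreas occurred among the absent peaks and were in no list, so these examples were chosen after their values were seen and are given as values only. Absent peaks lay at or near the starts of DES (fold 3.48), the muscle intermediate filament, CRYAB (3.39), a small heat shock protein of lens and muscle, TNNT1 (3.05) and TNNI1 (2.65), troponin subunits of slow muscle, LMOD2 (2.70), MYH2 (2.63), a fast myosin heavy chain, MYOT (2.52) and SLN (2.46), a regulator of the calcium pump. At TNNT1, LMOD2, MYOT and SLN the peak covered the TSS. Of the digestive enzymes and their cofactor, CLPS (3.54), PNLIPRP2 (2.76), CELA1 (2.72) and PNLIPRP1 (2.48) had one. Of these 12 starts DES had the only CpG-rich one. Genes known from liver that were in no list also had absent peaks, among them BAAT (3.95), which conjugates bile acids, SELENOP (3.90), a selenium carrier of plasma, SDS (3.23), MASP2 (3.16) and FABP1 (3.07), a fatty acid binding protein. No share over all genes of muscle, pancreas or liver was taken, and the examples say nothing about how often such genes occur.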
